A study of Mus musculus with 2 samples.

Results

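The genes described here are 10 members of the mammalian circadian clock, taken by symbol from the 31053 genes of the deposited matrices: Arntl, Clock, Per1, Per2, Per3, Ciart, Nr1d1, Nr1d2, Dbp and Tef. All 10 were present in the matrices and all are accounted for below. The values come from single-cell RNA sequencing of pancreatic islets from male C57/B6 mice aged 16 weeks. For the wild-type (WT) group the labels name no diet. The other group (HFD) received, from 6 weeks of age and for 10 weeks, food in which fat supplied 60% of the calories. Islets of 4 mice were pooled before dispersion in each group, so each group is 1 library and no mouse can be separated from its pool. Clock transcripts follow the time of day, and the time at which the islets were taken is not given in the sources used here. Diet, hour of collection, islet preparation and library therefore cannot be told apart in any comparison below.

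The circadian clock is a feedback loop of transcription that runs in nearly every cell. ARNTL (also called BMAL1) and CLOCK bind E-box sequences and turn on the Per, Nr1d, Ciart, Dbp and Tef genes, whose proteins then feed back. PER proteins and CIART inhibit the activators, NR1D1 and NR1D2 repress Arntl through RRE sequences, and DBP and TEF act on D-box sequences in output genes. Arntl transcripts therefore run roughly opposite in phase to those of Nr1d1 and Dbp. In β cells the clock is known for its part in the daily rhythm of insulin secretion, and Per1 is also induced acutely by cAMP and stress signals through CREB.

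Several members carry these sequences next to their transcription starts, and they are shown because the background above names them. They are letter matches, and no binding was measured. Of the 10 members, 9 had an entry in the RefSeq promoter table for GRCm38.p6, with 14 windows of 300 bases in all, each from 250 bases before a start to 50 bases past it. Windows were searched on both strands for the E-box CACGTG, the D-box TTANGTAA, the RRE TAGGTCA and the cAMP response core TGACGT. The stretches below run 5′ to 3′ on the strand of the gene, with the motif in capitals and 25 bases on either side of the outermost motifs, except that of Arntl.
Ciart, chr3:95882242-95882369, minus strand: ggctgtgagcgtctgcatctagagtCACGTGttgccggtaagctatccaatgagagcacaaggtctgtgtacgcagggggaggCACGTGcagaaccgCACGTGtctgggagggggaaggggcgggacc
Per3, chr4:151044791-151044895, minus strand: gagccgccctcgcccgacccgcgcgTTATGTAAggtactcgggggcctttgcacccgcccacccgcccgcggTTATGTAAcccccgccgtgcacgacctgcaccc
Per1, chr11:69098758-69098813, plus strand: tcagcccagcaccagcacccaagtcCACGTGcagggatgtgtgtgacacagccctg
Per1, chr11:69099995-69100050, plus strand: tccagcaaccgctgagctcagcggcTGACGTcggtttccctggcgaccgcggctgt
Tef, chr15:81811251-81811306, plus strand: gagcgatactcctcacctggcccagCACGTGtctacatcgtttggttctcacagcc
Arntl, chr7:113207529-113207558, plus strand: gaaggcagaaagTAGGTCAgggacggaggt

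Ciart had 3 E-boxes, which began 116, 58 and 44 bases before its start, and 6.02% of the 32851 windows in the table held any E-box in the 250 upstream bases. Per3 had 2 D-boxes, at 205 and 158 bases before its start, and 2.06% of windows held any. Per1 had an E-box at 166 bases before the first of its starts in the table and a cAMP response core at 132 bases before the second, and 6.47% of windows held such a core. Tef had 1 E-box before each of its 2 starts, and the first of these lies in an annotated exon and is not shown. Arntl had its RRE 30 bases past its second start, in an annotated exon, and 2.61% of whole windows held an RRE. By the GENCODE annotation of the same build, the Per1 and Tef stretches lie inside the gene in no exon, that of Per3 lies outside exons, and 10 bases of that of Ciart fall in an exon. The windows of Clock, Dbp, Nr1d1 and Nr1d2 held none of the 4 motifs, which says only that these letters are not in these windows. Per2 had no entry in the table.

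The WT library held 73843674 unique molecular identifiers (UMIs, each of which stands for 1 captured transcript) over 3895 barcodes, and the HFD library 94375138 over 8951. After filters 2498 WT and 6672 HFD cells remained, with a median of 24031 and 10919 UMIs. The 2 libraries shared 9 barcodes, 3 of them among kept cells. The kept cells held 11930 UMIs of the 10 genes in WT and 13223 in HFD. Cell classes were named from clusters and marker genes and are written as β-like and so on. The β-like class held 1648 WT and 5502 HFD cells, the α-like class 72 and 230, the δ-like class 52 and 116, and the endothelial-like class 172 and 153. Markers detected in these classes were 9 to 10 of 10 for β, 8 of 8 for α, 4 of 7 for δ and 9 of 9 for endothelial cells. The genes Ppy and Pyy of pancreatic polypeptide cells were also among the leading genes of the α-like and δ-like clusters. Within the β-like class the libraries barely shared clusters: WT cells lay mostly in clusters 0, 1 and 6 and HFD cells in clusters 10, 14, 16, 18, 19 and 20. Median depth in β-like cells was 30331 UMIs in WT and 11805 in HFD.

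The counted members did not all lie on one side of 1 in any of the 4 classes, with 3 below and 7 above in β-like, 6 and 2 in α-like, 4 and 4 in δ-like and 4 and 4 in endothelial-like cells. Per1 was lower in HFD than in WT in β-like, α-like and endothelial-like cells, with similar ratios, whereas Per2 and Ciart were higher in β-like cells. Among β-like cells binned by immediate early gene level the ratio of Per1 differed between bins and with the scaling, as given below. In endothelial-like cells Arntl was lower and Tef higher, and in δ-like cells no member met the criterion for a difference. Levels are UMIs of a gene per 1000000 UMIs of the class (CPM), and brackets hold 95% intervals that cover counting error only. The criterion was a ratio of at least 1.5-fold with an interval that excludes 1, among genes that reached 20 UMIs in the class when both libraries were summed. With 1 library per group there is no test across mice, and no p-value is given.

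In β-like cells 1 of 10 members (Per1) met the criterion as lower and 2 (Per2 and Ciart) as higher, where 4.95% and 3.68% of all 13221 genes counted did so. Without the fold, intervals lay wholly below 1 for 2 members (Per1 and Clock) and above 1 for 5 (Per2, Per3, Ciart, Nr1d1 and Tef), where 21% and 22.8% of all genes counted did so. In α-like cells 1 of 8 counted members (Per1) was lower and 0 were higher, against 5.23% and 1.79% of 7108 genes. In δ-like cells 0 of 8 were lower and 0 higher, against 3.88% and 2.82% of 4721 genes. In endothelial-like cells 2 of 8 (Per1 and Arntl) were lower and 1 (Tef) was higher, against 6.53% and 4.11% of 8038 genes. The median log2 ratio of the counted members was 0.09 in β-like, -0.19 in α-like, -0.0070 in δ-like and 0.08 in endothelial-like cells. Over all genes counted it was -0.0013, -0.12, -0.05 and -0.07, so the medians of the members stood close to those of all genes. With a maximum of 15000 UMIs per cell, 4 of 7 counted members (Dbp, Tef, Nr1d1 and Nr1d2) met the criterion as higher in endothelial-like cells, against 4.21% of all genes, with a median of 0.76 against -0.07. Arntl in α-like and δ-like cells, Ciart in those and in endothelial-like cells, and Per3 in endothelial-like cells had under 20 UMIs and were not counted.

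**Figure D1:**
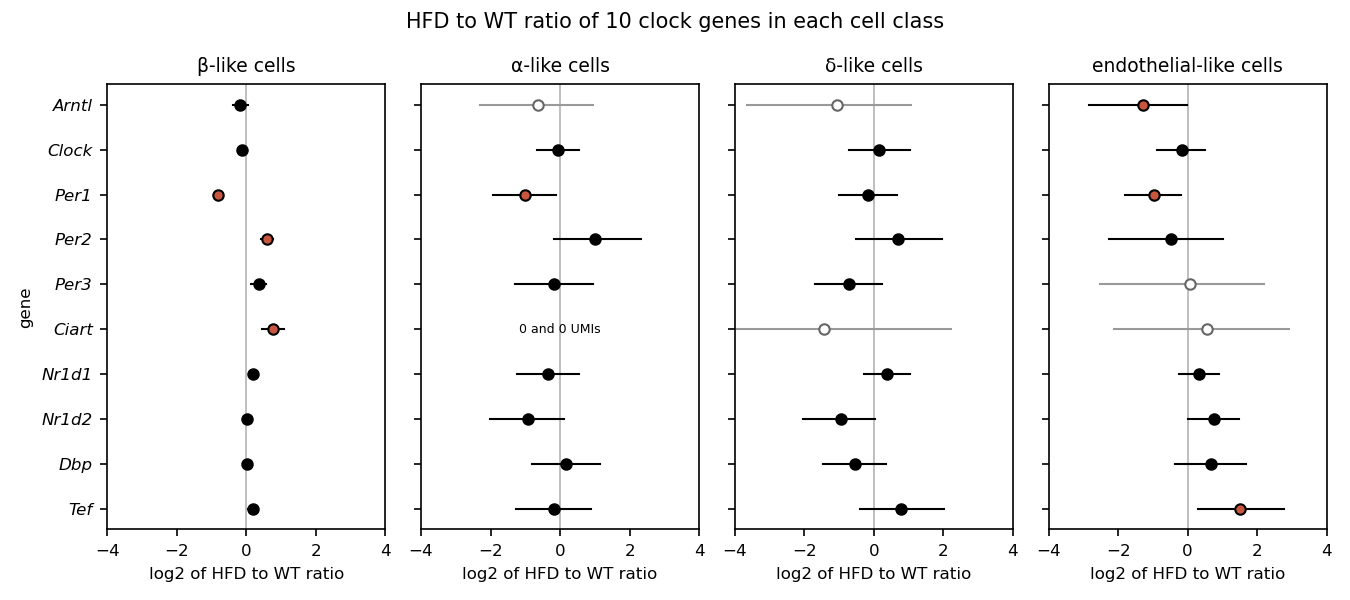
HFD to WT ratio (log2, x axis) of each clock gene (y axis) in 4 cell classes, from UMIs summed over the cells of 1 WT and 1 HFD library. Lines are 95% counting intervals (drawn to the edge at 4 where longer), red points met the 1.5-fold criterion, and open points had under 20 UMIs over both libraries. Per1 lies left of 0 in every class, at -0.81 in β-like and -0.17 in δ-like cells, and the intervals outside β-like cells are wide.

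Arntl, which encodes the DNA-binding activator of the loop, was detected at 6.01 CPM [5.38 to 6.69] in WT and 5.34 CPM [4.82 to 5.89] in HFD β-like cells, from 336 and 393 UMIs. The HFD to WT ratio was 0.89 [0.77 to 1.03], so over all β-like cells the libraries held levels within counting error of each other. Among β-like cells of like depth Arntl had other ratios, as given below. In endothelial-like cells 36 WT UMIs gave 25.1 CPM and 6 HFD UMIs gave 10.3 CPM, a ratio of 0.41 [0.14 to 0.98]. The upper bound lies just under 1, and the interval covered 1 with at most 10% mitochondrial UMIs, at least 1000 genes, TMM scaling, thinned cells and cells of low insulin share. In α-like cells 9 WT and 7 HFD UMIs gave 0.64 [0.20 to 1.94], and in δ-like cells 7 and 3 UMIs gave 0.48 [0.080 to 2.09]. All 4 ratios lay below 1, of which only that of endothelial-like cells had an interval that excluded it.

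Clock, which encodes the partner of ARNTL, had the narrowest range of ratios over the 4 classes. In β-like cells it was 32.4 CPM [30.9 to 33.9] in WT against 29.6 CPM [28.4 to 30.9] in HFD, a ratio of 0.92 [0.86 to 0.98]. The ratio was 0.95 [0.63 to 1.44] in α-like cells, 1.11 [0.61 to 2.05] in δ-like cells and 0.89 [0.54 to 1.41] in endothelial-like cells. The interval excluded 1 in β-like cells alone, by a small margin.

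Per1, the Period gene that also responds to acute signals, had 1161 WT and 869 HFD UMIs in β-like cells, which gave 20.8 CPM [19.6 to 22.0] and 11.8 CPM [11.03 to 12.61]. The ratio was 0.57 [0.52 to 0.62]. In α-like cells 30 UMIs in WT gave 30.6 CPM and 18 in HFD gave 15.2 CPM, with a ratio of 0.50 [0.26 to 0.92] whose interval covered 1 with TMM scaling, thinned cells, classes by dominant hormone and cells of low insulin share. Endothelial-like cells gave 56.4 and 29.1 CPM, from 81 and 17 UMIs, with a ratio of 0.52 [0.29 to 0.88] whose interval covered 1 under a maximum of 15000 UMIs and with thinned cells. These 3 classes thus held similar ratios of Per1. In δ-like cells 71.6 and 63.7 CPM gave 0.89 [0.50 to 1.57], an interval that also covers the ratios of the other classes. In duct-like cells, of which there were 58 in WT and 35 in HFD, 80 and 9 UMIs gave 0.51 [0.22 to 1.01].

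Immediate early genes were also lower in HFD in these classes. The list held 10 such genes, which respond within minutes to stimulation or tissue handling. They were Fos, Fosb, Jun, Junb, Egr1, Ier2, Ier3, Atf3, Btg2 and Zfp36. Of those counted, 7 of 10 met the criterion as lower in β-like cells and 8 of 9 in α-like cells. In δ-like cells 6 of 9 did so, and in endothelial-like cells 9 of 10. Of all genes counted, 4.95%, 5.23%, 3.88% and 6.53% were lower in these 4 classes. The 1 member that was higher in any class was Ier3, in endothelial-like cells. Fos had the lowest ratio of the list in β-like cells, at 0.20 [0.196 to 0.204]. The summed level of the list was 2893 CPM (WT) and 1238 CPM (HFD) in β-like cells, 4562 and 1882 CPM in α-like, 9548 and 5410.1 CPM in δ-like, and 18757 and 8878 CPM in endothelial-like cells. Its median log2 ratio was -1.25, -1.12, -0.73 and -1.31 in the 4 classes. The part of these genes in the ratio of Per1 was not tested, but values of Per1 at like immediate early levels are given below.

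Per2, which encodes a core PERIOD inhibitor of the loop, went the other way in β-like cells. It was 7.19 CPM [6.50 to 7.93] in WT and 10.8 CPM [10.0 to 11.6] in HFD, from 402 and 794 UMIs, a ratio of 1.5 [1.33 to 1.70]. The ratio sits at the edge of the criterion. On the log2 scale it was 0.58, and 0.49 when hormone and mitochondrial UMIs were left out of the totals. In α-like cells 9.19 and 18.6 CPM, from 9 and 22 UMIs, gave 2.02 [0.89 to 4.98]. In δ-like cells 26.3 and 42.5 CPM, from 11 and 16 UMIs, gave 1.62 [0.71 to 3.86], and in endothelial-like cells 11.8 and 8.55 CPM, from 17 and 5 UMIs, gave 0.72 [0.21 to 2.04]. The 3 endocrine classes lay above 1 and the endothelial-like class below it, but outside β-like cells each interval covered 1. Per1 and Per2 thus had opposite directions in β-like cells, with intervals far from each other.

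Per3, the Period gene with D-boxes at its start, was 5.56 CPM [4.96 to 6.22] in WT against 7.10 CPM [6.51 to 7.74] in HFD β-like cells. The ratio of 1.28 [1.11 to 1.47] was above 1 but under 1.5-fold. In δ-like cells 29 and 16 UMIs gave 69.2 and 42.5 CPM, with a ratio of 0.61 [0.31 to 1.17]. In α-like cells 15 and 16 UMIs gave 0.88 [0.41 to 1.91], and in endothelial-like cells 7 and 3 UMIs gave 1.05 [0.18 to 4.61].

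Ciart, which encodes a repressor of the ARNTL and CLOCK pair, was the least captured member. It was 2.22 CPM [1.84 to 2.64] in WT and 3.73 CPM [3.31 to 4.20] in HFD β-like cells, from 124 and 275 UMIs, a ratio of 1.68 [1.36 to 2.10]. No UMI of Ciart was found in α-like cells of either library, which allows up to 3.06 CPM in WT and up to 2.53 CPM in HFD. δ-like cells held 3 and 1 UMIs, and endothelial-like cells 5 and 3, too few to compare with β-like cells.

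Nr1d1 and Nr1d2 encode the REV-ERB receptors, which repress Arntl. Nr1d1 was 22.0 CPM [20.8 to 23.3] in WT against 24.9 CPM [23.8 to 26.1] in HFD β-like cells, a ratio of 1.13 [1.05 to 1.22]. It was 24.5 and 19.4 CPM in α-like cells, 90.7 and 116.9 CPM in δ-like cells and 54.3 and 68.4 CPM in endothelial-like cells. The ratios were 0.79 [0.43 to 1.46], 1.29 [0.82 to 2.04] and 1.26 [0.84 to 1.87], each with an interval across 1. Over all β-like cells Nr1d2 was level, at 24.2 CPM [22.9 to 25.5] in WT and 24.3 CPM [23.1 to 25.4] in HFD, a ratio of 1.003 [0.93 to 1.08]. Among β-like cells of like depth or like immediate early level Nr1d2 had other ratios, as given below. It was 22.5 CPM in WT and 11.8 CPM in HFD α-like cells (0.53 [0.25 to 1.07]), and 66.8 and 34.5 CPM in δ-like cells (0.52 [0.25 to 1.03]). In endothelial-like cells it was 28.5 CPM in WT and 47.9 CPM in HFD, a ratio of 1.68 [0.999 to 2.78]. Nr1d2 thus had ratios below 1 in α-like and δ-like cells and above 1 in endothelial-like cells, but each of these intervals covered 1.

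Dbp and Tef encode bZIP factors of the clock output, and Dbp is among the transcripts of widest daily swing in many tissues. In β-like cells Dbp was 24.7 CPM [23.5 to 26.1] in WT and 24.9 CPM [23.8 to 26.1] in HFD, from 1384 and 1833 UMIs, a ratio of 1.01 [0.94 to 1.08]. In α-like cells 17.4 and 19.4 CPM gave 1.12 [0.57 to 2.23], in δ-like cells 69.2 and 47.8 CPM gave 0.69 [0.36 to 1.29], and in endothelial-like cells 16.0 and 25.6 CPM gave 1.60 [0.78 to 3.20]. Over all cells of a class the interval of Dbp covered 1 in each of the 4 classes. Tef was 11.1 CPM [10.2 to 11.96] in WT and 12.6 CPM [11.8 to 13.4] in HFD β-like cells, a ratio of 1.14 [1.03 to 1.26]. In endothelial-like cells 12 WT UMIs gave 8.35 CPM and 14 HFD UMIs gave 23.9 CPM, a ratio of 2.87 [1.23 to 6.78]. In α-like cells the ratio was 0.88 [0.42 to 1.86] and in δ-like cells 1.72 [0.76 to 4.06].

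Whether a gene moved alike in 2 classes was asked from the difference of the log2 ratios, with a 95% interval from the 4 counts, for the 48 pairs with at least 5 UMIs in each count. The interval excluded 0 in 7 pairs, and the intervals were not widened for the number of pairs. The same share over all genes was not computed, so the count cannot be read as particular to these genes. The log2 ratio of Tef was higher in endothelial-like than in β-like cells by 1.33 [0.21 to 2.45] and than in α-like cells by 1.71 [0.22 to 3.19]. The log2 ratio of Nr1d2 in endothelial-like cells exceeded that in β-like cells by 0.74 [0.041 to 1.44]. It exceeded that in α-like cells by 1.67 [0.48 to 2.86] and that in δ-like cells by 1.70 [0.52 to 2.87]. The ratio of δ-like cells lay below that of β-like cells for Per3 by a difference of -1.06 [-1.96 to -0.15] and for Nr1d2 by -0.96 [-1.91 to -0.0032]. For Per1 none of the 6 pairs excluded 0, and the widest difference, between α-like and δ-like cells, was 0.84 [-0.30 to 1.99]. For Clock the 6 intervals also covered 0, the narrowest being 0.06 [-0.52 to 0.63] between β-like and α-like cells. Endothelial-like cells differed from β-like cells in 2 of 8 genes, from α-like cells in 2 of 8 and from δ-like cells in 1 of 7. These were Tef and Nr1d2 only, so the same endothelial-like counts recur among them. β-like and δ-like cells differed in 2 of 8 genes, α-like and δ-like cells in 0 of 8, and β-like and α-like cells in 0 of 9.

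Scaling mattered in β-like cells, since genes of at least 50 CPM had a median HFD to WT ratio 0.13 above 0 on the log2 scale. Relative to that shift the log2 ratio was -0.95 for Per1, 0.45 for Per2 and 0.62 for Ciart. It was 0.22 for Per3, 0.06 for Tef, 0.05 for Nr1d1, -0.12 for Dbp, -0.13 for Nr1d2, -0.26 for Clock and -0.30 for Arntl. On this scale Per1 and Ciart met the criterion and Per2 did not. In α-like cells edgeR's TMM scaling moved the ratios up by 0.13, and the ratio of Per1 was then -0.88 on the log2 scale, with an interval that covered 0.

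The β-like ratios were also taken among cells of like depth, as WT cells were much deeper. There were 54 WT and 1997 HFD cells with 2000 to 10000 UMIs, 272 and 2646 with 10000 to 20000, 811 and 843 with 20000 to 40000, and 509 and 6 above that. Per1 was lower in each of the 3 ranges with enough cells of both, at 0.56 [0.28 to 1.32], 0.45 [0.37 to 0.56] and 0.49 [0.41 to 0.57]. Per2 was above 1 in each, at 1.39 [0.47 to 6.80], 1.25 [0.89 to 1.79] and 1.5 [1.21 to 1.86]. Both thus kept their direction among cells of like depth. Dbp, level over all β-like cells, had ratios of 1.18 [0.63 to 2.47], 0.60 [0.51 to 0.71] and 0.79 [0.69 to 0.89]. Nr1d1, above 1 over all cells, was 0.69 [0.58 to 0.82] and 0.90 [0.79 to 1.02] in the 2 deeper ranges, and Tef was 0.63 [0.50 to 0.79] and 0.82 [0.68 to 0.99]. Within a library Dbp differed between the ranges, at 31.2, 38.7 and 24.4 CPM in WT and at 36.6, 23.3 and 19.2 CPM in HFD from the shallowest to the deepest. Nr1d2, level over all cells, had ratios of 0.64 [0.54 to 0.75] and 0.78 [0.69 to 0.88] in the 2 deeper ranges. In the same 2 ranges Per3 had 0.79 [0.56 to 1.14] and 1.01 [0.79 to 1.30], against 1.28 over all cells. Arntl had 1.08 [0.70 to 1.75] and 0.76 [0.58 to 0.98] there, and Clock 0.81 [0.68 to 0.96] and 0.82 [0.73 to 0.91]. Ratios of Dbp, Tef, Nr1d1, Nr1d2, Per3 and Arntl in β-like cells therefore depended on which cells were compared.

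The same cells were next divided into 4 bins of equal cell number by the summed CPM of the 10 immediate early genes in each cell, a division chosen after seeing the data. The lowest bin held 217 WT and 1571 HFD cells and the highest 1032 and 756, so most WT cells lay in the highest bin. The summed level of these genes was 324 CPM in WT and 381 in HFD in the lowest bin, 819 and 838 in the second, 1981 and 1605 in the third, and 3816 and 3827 in the highest. The ratio of Per1 was 0.63 [0.46 to 0.88] in the lowest bin, 0.98 [0.65 to 1.54] and 0.91 [0.76 to 1.10] in the middle ones, and 1.17 [1.01 to 1.35] in the highest. Per1 itself went from 9.46 CPM in the lowest to 25.3 CPM in the highest bin in WT, and from 6.00 to 29.6 CPM in HFD. Without hormone and mitochondrial UMIs in the totals these ratios were 0.66 [0.48 to 0.91], 1.03 [0.68 to 1.61], 0.79 [0.65 to 0.95] and 1.005 [0.87 to 1.16]. Per1 was thus lower in HFD in the lowest bin on both scales, lower in the third bin on the second scale only, and higher in the highest bin on the first scale only. The bins were alike in the sum of the list but not in each gene, as Fos was 571 CPM in WT and 206 CPM in HFD in the third bin and 1108 and 698 CPM in the highest. Per2 behaved otherwise, with ratios of 2.32 [1.48 to 3.79], 2.20 [1.27 to 4.20], 2.04 [1.56 to 2.69] and 1.85 [1.49 to 2.29], above 1 in every bin. Ciart was also above 1 in each, at 1.62 [0.89 to 3.19], 1.34 [0.65 to 3.20], 2.31 [1.38 to 4.06] and 1.90 [1.26 to 2.83].

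For Dbp the direction differed between bins. Its ratio was 0.58 [0.49 to 0.69], 0.49 [0.40 to 0.60], 1.21 [1.04 to 1.41] and 2.01 [1.77 to 2.28] from the lowest to the highest. Without hormone and mitochondrial UMIs the third was 1.04 [0.90 to 1.21] and the highest 1.73 [1.52 to 1.96]. For Nr1d1 it was likewise 0.85 [0.71 to 1.04] and 0.65 [0.52 to 0.81] in the lower and 1.39 [1.19 to 1.63] and 1.97 [1.73 to 2.24] in the upper bins. Nr1d2 had 0.60 [0.51 to 0.70] and 0.47 [0.38 to 0.58] in the lower bins. In the upper bins Nr1d2 had 1.44 [1.23 to 1.69] and 1.60 [1.39 to 1.83]. In WT Dbp was highest among cells with few immediate early transcripts, at 33.7 and 43.2 CPM in the 2 lower bins against 22.2 and 22.6 in the 2 upper. In HFD it was highest in the top bin, at 45.3 CPM against 19.7 in the lowest. The ratio of 1.01 over all β-like cells thus combines bins with ratios below and above 1. These bins were not matched for UMIs per cell. At like depth Dbp had ratios of 1.18 [0.63 to 2.47], 0.60 [0.51 to 0.71] and 0.79 [0.69 to 0.89]. The part of depth in the ratios by bin was not tested.

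**Figure D2:**
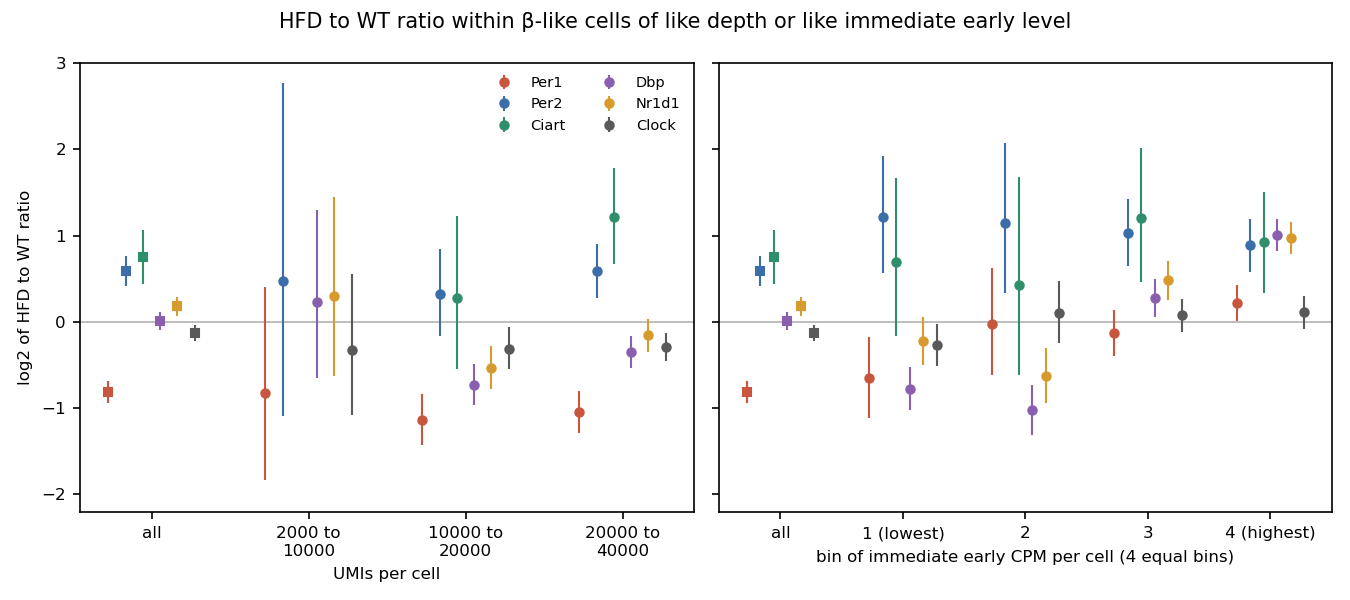
HFD to WT ratio (log2, y axis) of 6 clock genes in β-like cells, over all cells (squares) and within ranges of UMIs per cell (left) or 4 equal bins of the summed immediate early CPM per cell (right). Ratios are on CPM over all UMIs, bars are 95% counting intervals, and Ciart has no point in the lowest depth range, where WT held 0 UMIs. Per2 stays above 0 in every range and bin, Per1 stays below 0 at every depth but lies at 0.22 in the highest bin, and Dbp and Nr1d1 cross 0 between bins.

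The β-like cells also differed in clock transcripts by subcluster, and the clock genes themselves had not been used for clustering. In WT, subcluster 1 (299 cells, led by Mt2, Mt1 and Ifit1) had 44.7 CPM of Dbp, 22.1 of Tef, 33.4 of Nr1d1 and 42.5 of Nr1d2. Subcluster 0 (1185 WT cells, led by Fos and C2cd4b) had 21.0, 8.96, 19.8 and 20.5 CPM of the same genes. Their intervals did not overlap for any of the 4 genes. Per1 went the opposite way between these subclusters, at 11.1 and 22.1 CPM, as did the immediate early sum, at 715 and 3279 CPM. Arntl, at 5.43 and 6.14 CPM, and Clock, at 33.2 and 32.1 CPM, were within counting error of each other.

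In HFD, Dbp ranged from 15.4 CPM in subcluster 2 (1770 cells, led by Dapl1 and Ttr) to 43.2 CPM in subcluster 3 (1355 cells, led by Ppy and mitochondrial genes). Tef, Nr1d1 and Nr1d2 had their lowest and highest HFD levels in the same 2 subclusters, at 7.88 and 20.5, 16.2 and 38.6, and 16.7 and 37.2 CPM. Clock also ran from 24.8 to 37.1 CPM between them, a smaller span, and Arntl was 5.35 and 4.27 CPM. Per2 was 8.92 to 14.4 CPM over the 5 HFD subclusters and 4.601 to 8.96 CPM over the 3 WT ones. Dbp, Tef, Nr1d1 and Nr1d2 thus had their highest levels in the same subcluster of each library, and their range within a library was wider than the difference between the libraries.

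Subcluster 3 was the 1 subcluster with at least 100 cells of both libraries, 118 in WT and 1355 in HFD. Within it Dbp was 24.4 CPM in WT and 43.2 in HFD, a ratio of 1.77 [1.32 to 2.42], Tef was 1.96 [1.26 to 3.22] and Nr1d1 1.80 [1.32 to 2.52]. Per1 was 0.75 [0.56 to 0.9999] and Per2 1.61 [0.99 to 2.77], in the same direction as over all β-like cells. Clock was 1.02 [0.80 to 1.32]. The immediate early sum was 3885 CPM in WT and 2200.3 CPM in HFD cells of this subcluster.

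**Figure D3:**
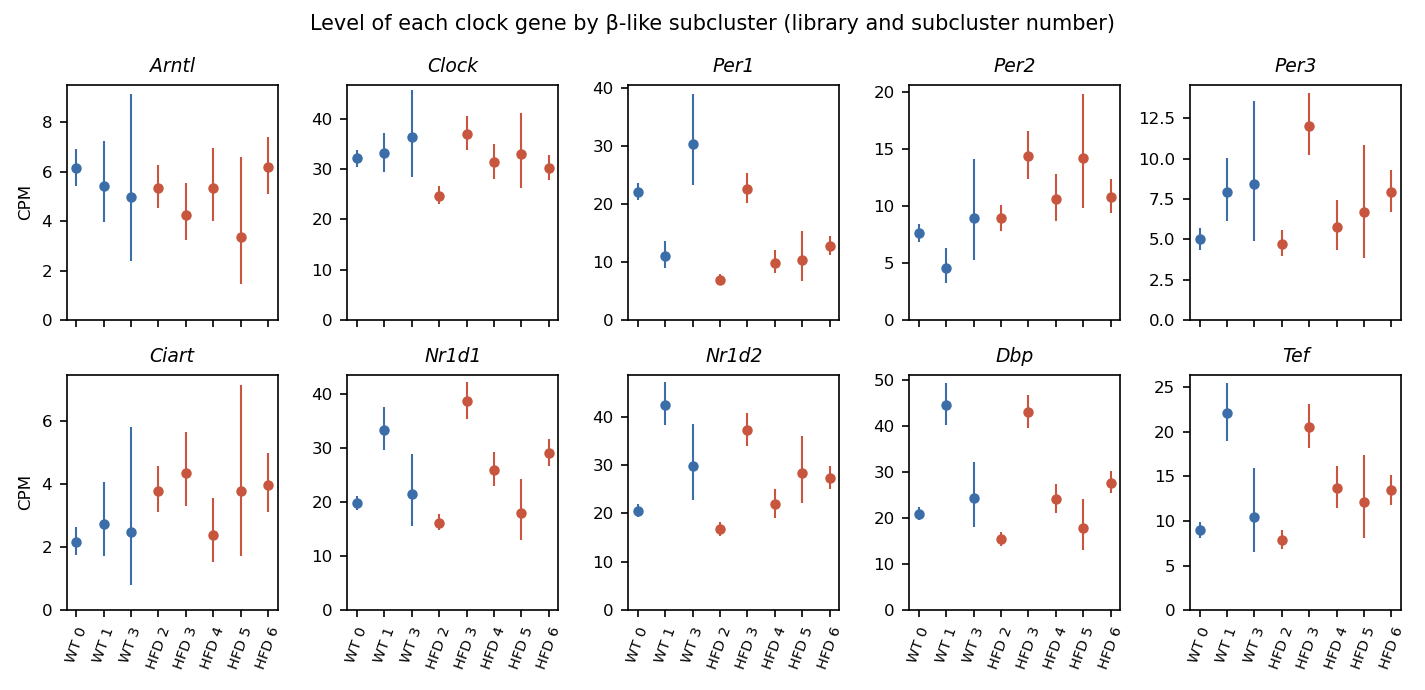
Level (CPM, y axis) of each clock gene in β-like subclusters with at least 100 cells of a library, labelled by library and subcluster number (WT blue, HFD red), with 95% counting intervals. Dbp, Tef, Nr1d1 and Nr1d2 are high in WT subcluster 1 and HFD subcluster 3 (Dbp 44.7 and 43.2 CPM) and low in WT subcluster 0 and HFD subcluster 2 (21.0 and 15.4 CPM), while Arntl and Clock vary less.

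Levels of the members also differed between cell classes. Insulin and other hormone transcripts, with mitochondrial ones, made up 67.8 to 69.9% of UMIs in β-like cells and 6.54 to 6.96% in endothelial-like cells, which lowers the CPM of every other gene in β-like cells. Classes were therefore compared on CPM without Ins1, Ins2, Gcg, Sst, Ppy, Iapp, Ttr and mitochondrial genes, a scaling added for this purpose after seeing the data. Of the 80 pairs of neighbours in the order of 5 classes, over 10 genes and 2 libraries, 16 differed beyond counting error. That share was not computed over all genes. β-like RNA carried into the other classes, judged from their insulin UMIs, could have given at most 8.01% of any member's level there.

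Nr1d1 had the clearest order, and duct-like cells were added to the 4 classes because its level there stood apart. On this scale duct-like cells had 330.1 CPM (WT) and 303.6 CPM (HFD), δ-like cells at 131.4 and 168.3, β-like at 73.3 and 77.4, endothelial-like at 58.4 and 73.2, and α-like at 40.7 and 33.7. The ratio of duct-like to β-like cells was 4.50 [3.96 to 5.11] in WT and 3.92 [2.99 to 5.06] in HFD. Duct-like cells differed from δ-like and these from β-like cells in both libraries, β-like and endothelial-like cells in neither, and endothelial-like and α-like cells in HFD. On CPM over all UMIs 304 UMIs gave 306.7 CPM in WT duct-like cells and 61 UMIs gave 276.9 CPM in HFD ones, with an HFD to WT ratio of 0.90 [0.67 to 1.19].

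Per3 was highest in δ-like cells, at 100.3 CPM (WT) and 61.2 CPM (HFD) without hormone genes, against 18.5 and 22.0 in β-like cells. The ratio of δ-like to β-like cells was 5.42 [3.57 to 7.95] in WT and 2.78 [1.58 to 4.55] in HFD. α-like, β-like and duct-like cells were neighbours that did not differ, and endothelial-like cells came last, at 5.24 and 5.49 CPM, below duct-like cells in WT beyond counting error but not in HFD. Per1 was also higher in δ-like than in β-like cells, at 1.503 [1.01 to 2.16] times in WT and 2.51 [1.60 to 3.75] times in HFD, although no neighbours in its order differed. The summed immediate early level given above was also higher in δ-like than in β-like cells. That sum is on CPM over all UMIs, a scale unlike that of these Per1 ratios and one that lowers β-like levels. Its part in the Per1 ratios was not tested.

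Dbp was lower in α-like and endothelial-like than in β-like cells in both libraries, at 28.8 and 33.7 CPM in α-like, 17.2 and 27.4 CPM in endothelial-like and 82.3 and 77.2 CPM in β-like cells. The δ-like, β-like and duct-like levels of Dbp did not differ as neighbours. Nr1d2 showed the same low classes, at 37.3 and 20.5 CPM in α-like and 30.7 and 51.2 CPM in endothelial-like cells, against 80.4 and 75.3 CPM in β-like cells. Clock was lower in endothelial-like cells, at 53.9 and 47.6 CPM against 107.6 and 92.0 CPM in β-like cells, and in duct-like cells, at 34.7 and 34.8 CPM. Per2 was lower in endothelial-like cells, at 12.7 and 9.15 CPM against 23.9 and 33.5 CPM. For Arntl no class differed from β-like cells in both libraries. For Tef only the WT endothelial-like and duct-like levels, 8.98 and 19.5 CPM against 36.8 CPM in β-like cells, lay apart. Ciart was 7.37 and 11.6 CPM in β-like cells and had no UMI in α-like cells, a ratio with an upper bound of 0.86 in WT and 0.47 in HFD. Nr1d1 in α-like cells, at 0.56 [0.35 to 0.83] and 0.43 [0.27 to 0.65] of β-like cells, and Per3 in endothelial-like cells, at 0.28 [0.11 to 0.59] and 0.25 [0.051 to 0.73], were likewise below β-like cells in both libraries.

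**Figure D4:**
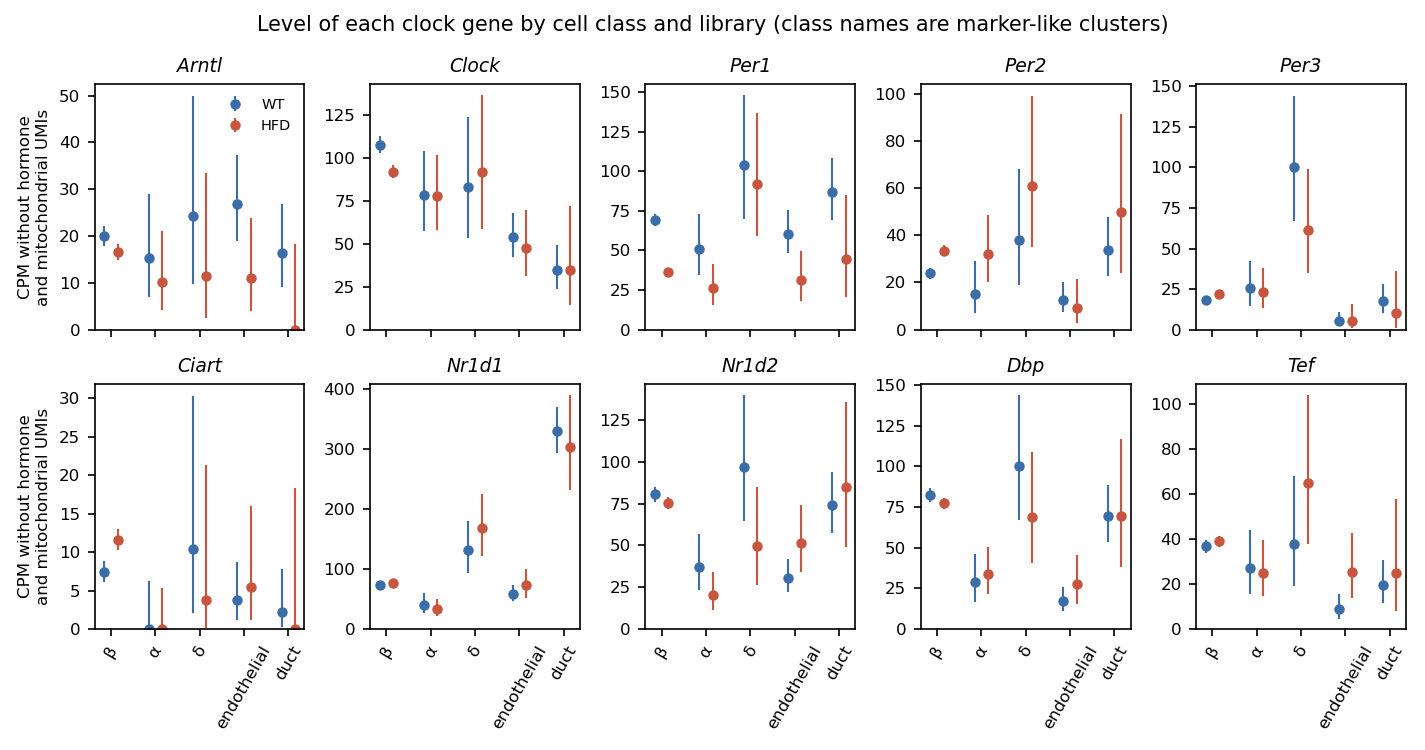
Level of each clock gene (CPM without hormone and mitochondrial UMIs, y axis, each panel from 0) by cell class in the WT (blue) and HFD (red) library, with 95% counting intervals. Nr1d1 stands highest in duct-like cells (330.1 and 303.6 CPM), Per3 in δ-like cells (100.3 and 61.2 CPM), and Dbp is low in α-like and endothelial-like cells.

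Other genes of the clock, a list of 19, were mostly within 1.5-fold in β-like cells. All 19 were counted, of which 1 met the criterion as lower (Npas2, which encodes a relative of CLOCK) and 0 as higher, close to the shares over all genes given above, and their median log2 ratio was -0.03. Npas2 had 101 WT and 26 HFD UMIs, a ratio of 0.20 [0.12 to 0.30], and the highest ratio in β-like cells was that of Wee1, a cell cycle kinase under clock control, at 1.33 [1.18 to 1.51]. In α-like cells 1 of 14 was lower (Csnk1e) and 0 higher, in δ-like cells 0 of 11 in either direction, and in endothelial-like cells 2 of 13 were lower (Rora and Csnk1e) and 1 higher (Noct). Cry1 and Cry2, which encode the partners of the PER proteins, had ratios of 1.20 [1.06 to 1.36] and 1.08 [1.03 to 1.13] in β-like cells.

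Genes that respond to glucocorticoids or cAMP, a list of 12, were added because such signals can set the clock. In β-like cells 3 of 11 counted were lower (Dusp1, Nr4a1 and Sik1) and 0 higher, against 4.95% and 3.68% of all genes. Dusp1, a phosphatase of MAP kinases, had the lowest ratio there, at 0.23 [0.22 to 0.24], and Crem, which encodes a cAMP-responsive factor, the highest, at 1.25 [1.17 to 1.35]. In α-like cells 4 of 8 were lower (the same 3 and Errfi1), against 5.23% of all genes, in δ-like cells 3 of 5 (Dusp1, Nr4a1 and Klf9), against 3.88%, and in endothelial-like cells 1 of 10 was lower (Nr4a1) and 3 were higher (Errfi1, Crem and Pde4b), against 6.53% and 4.11%. Tsc22d3 and Fkbp5, which respond to glucocorticoids, were at 1.20 [1.11 to 1.30] and 0.76 [0.68 to 0.85] in β-like cells, on opposite sides of 1.

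Some members overlap other genes in the annotation, and whether the counting used the strand of reads is not given in the sources used here. Nr1d1 (chr11:98767932-98775333) overlaps Thra on the opposite strand, which had a β-like ratio of 0.66 [0.58 to 0.74] against 1.13 for Nr1d1. Dbp (chr7:45705088-45710203) overlaps Sphk2 on the opposite strand, at 1.10 [1.01 to 1.18]. Per3 (chr4:151003652-151044665) overlaps Camta1 on the same strand, at 0.91 [0.83 to 1.005], and Ciart (chr3:95878503-95882251) overlaps the antisense gene C920021L13Rik, at 1.10 [0.83 to 1.46]. The values of these 4 members are uncertain to the extent that reads were shared. Clock, Tef and Arntl overlap only pseudogenes or noncoding genes, and Per1, Per2 and Nr1d2 overlap no other annotated gene.

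The genes most like Dbp in their 4 HFD to WT ratios, by the Euclidean distance over log2 ratios among 4083 genes with at least 20 UMIs in each class, were Smchd1, B9d2, Zfhx2, Tspyl2 and Mdm4, at distances of 0.16 to 0.26. Those most like Arntl were Bmpr1a, Dynlt1f, Tsen15, Ankrd39 and Sipa1l3, at 0.20 to 0.36. Members were left out of this search beforehand, and no other listed clock gene was among these 10. The likeness is over 4 cell classes that share 2 libraries, and the ratio of Arntl in α-like and δ-like cells rests on few UMIs.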

How the data were processed

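The authors aligned reads of the 10x Genomics 3-prime v3 libraries to mm10 with Cell Ranger (v3.0.2, per the labels' processing notes), and deposited raw UMI counts per gene and barcode. No value had been normalised. From these counts barcodes with at least 500 genes and at most 20% mitochondrial UMIs were kept, with no maximum of UMIs, as the definition of the gene set asks. The automatic Scrublet threshold called 17 WT and 3 HFD barcodes as doublets. The highest-scoring barcodes were left out instead, 0.8% for each 1000 barcodes, which were 121 (3.11%) in WT and 641 (7.16%) in HFD. Both libraries were clustered together (scanpy v1.11.5, igraph v0.11.9, 2000 variable genes, 50 components, 15 neighbours, Leiden resolution 1) without hormone genes, members, other clock genes and response lists. Clusters were named from 16 marker lists where at least 3 markers were detected. A cluster stayed unnamed if its 10 leading genes held more markers of another class than of its own, or if they held none of its own and its cells had under 0.3333 of the median UMIs of their samples. Unnamed clusters held 356 WT and 356 HFD cells. They were left out of the classes. A second clustering of the β-like cells alone used resolution 0.5.

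UMIs were summed by class and library. CPM carry exact Poisson and ratios exact conditional binomial 95% intervals (scipy v1.17.1), which cover counting error only, since PCR and pooled mice are not counted. A level of 0 UMIs is given the limit that 3 counts would set. TMM factors came from edgeR (v4.0.16). Promoter sequences are from RefSeq and gene positions from GENCODE, both on GRCm38. The members, the lists and their criteria were chosen with earlier results of these data known. All members are named. Genes of other lists are named by the largest ratio in each direction in β-like cells or where a count was small, and Cry1, Cry2, Tsc22d3 and Fkbp5 were named after their values were seen. Alternatives were a UMI maximum, other filters, scalings, class definitions and thinning of cells to 2000 UMIs. Ratios by depth and within subclusters were part of the design and were added to the alternatives later. The division by immediate early level, the joining of unnamed clusters, the addition of duct-like cells and the use of CPM without hormone genes for levels were chosen after seeing the data.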

Additional observations from a re-analysis of the deposited data

Results flagged for a closer look

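Rora, which encodes an activator of Arntl, was above 1 in β-like cells, with an HFD to WT ratio of 1.10 [1.03 to 1.17], and below 1 in endothelial-like cells, at 0.56 [0.34 to 0.88]. It is given because its intervals lay on opposite sides of 1 in these classes. The difference itself was not tested.

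In fibroblast-like cells, which none of the comparisons above used, Dbp had 1 UMI in 64 WT cells and 4 UMIs in 27 HFD cells, a ratio of 25.1 [2.49 to 1237]. Nr1d1 had 5 UMIs in each library in the same cells, a ratio of 6.28 [1.44 to 27.3]. Both intervals excluded 1, and both rest on very few UMIs. These genes were singled out among all members and the remaining classes after their values were seen.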

How the results depend on the processing

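No paired analysis was possible because each group is 1 library and the labels give no replicate numbers. Counts below are members lower and higher by the 1.5-fold criterion, and medians and ratios are on the log2 scale. Shares of all genes are given here only for β-like cells under the UMI maximum, and such shares differ between settings. The other counts show how the counts of members moved and cannot be read as particular to the members. A maximum of 15000 UMIs per cell gave 3 lower (Per1, Nr1d1 and Nr1d2), 1 higher (Per2) and a median of -0.37 in β-like cells, where 12.02% of all genes were lower, 1.49% were higher and the median of all genes was -0.22. It gave 1 lower (Arntl) and 4 higher (Dbp, Tef, Nr1d1 and Nr1d2) in endothelial-like cells. With doublets included δ-like cells had 1 lower. At most 10% mitochondrial UMIs left 1 lower in endothelial-like cells. At least 1000 genes gave 1 lower in δ-like cells, and 1 lower and 2 higher in endothelial-like cells. CPM without hormone and mitochondrial genes left 1 higher in β-like cells (Ciart), as did division by the median gene (median -0.038), classes by dominant hormone and the joining of unnamed clusters, the last of these chosen after seeing the data. With TMM 0 were lower in α-like cells, and 1 was lower and 2 higher in endothelial-like cells. The mean of per-cell CPM gave 1 lower in δ-like and 2 higher in endothelial-like cells. Thinning to 2000 UMIs left 1 higher in β-like cells (Per2), 0 lower in α-like cells, and 0 lower and 0 higher in endothelial-like cells, where fewer genes reached 20 UMIs. Classes by dominant hormone gave 0 lower in α-like cells. Cells of low insulin share gave 1 lower in δ-like cells, and 1 lower and 0 higher in endothelial-like cells. A minimum of 50 UMIs left 0 lower in α-like cells, and 1 lower and 0 higher in endothelial-like cells. At 2-fold β-like cells had 0 lower and 0 higher, and endothelial-like cells 1 lower.

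Among ratios whose interval excluded 1, those that changed sign under another setting were all in β-like cells. Tef turned to -0.25 under the UMI maximum, to -0.95 and -0.42 in the 2 lower immediate early bins, and to -0.67 and -0.28 in cells of 10000 to 20000 and of 20000 to 40000 UMIs. Nr1d1 turned to -0.78, -0.23, -0.63, -0.54 and -0.16 under the same 5 settings. Per3 turned to -0.31, -0.34 and -0.15 under the first 3, and to -0.34 in cells of 10000 to 20000 UMIs. Clock turned to 0.0094 with thinned cells, to 0.11, 0.076 and 0.11 in the 3 upper immediate early bins, and to 0.029 within subcluster 3. Per1 turned to 0.22 in the highest bin. The cause was not tested for any of these.

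Per1 in β-like cells lay between -1.24 and -0.74 over 12 settings, bins, depth ranges and subclusters aside, and Per2 between 0.45 and 1.19. Of the 493 gene ratios recomputed, 400 moved by no more than their counting interval, 73 moved further without a change of a called direction and 20 changed sign as above. Depth limits α-like, δ-like and endothelial-like cells most, where a member had at most 118 UMIs in all.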
